A study of Homo sapiens with 36 samples.

Results

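Ribosome biogenesis and nucleolar genes were followed across the treatments as a group of 43 genes, out of the 54583 genes in each deposited count table. The members were taken by gene symbol, with no measured value in the rule, and all 43 were found and passed the filter on low counts in each of the 3 tables. The list was chosen with earlier results of these data known. Shares of members set beside all genes below therefore describe these data and are not an independent test. The libraries were polyA RNA-seq of MDA-MB-231, an established human triple-negative breast cancer line with mesenchymal features. The 36 libraries formed 3 sets of 12, and each set held 4 groups of 3 libraries. In the MG132 set the cells were treated for 8 h with DMSO, with SHP1705 at 10 µM, with MG132 at 100 nM, or with SHP1705 and MG132 together. In the carfilzomib sets they were treated for 8 h or for 24 h with DMSO, with SHP1705 at 10 µM, with carfilzomib at 10 nM, or with SHP1705 and carfilzomib together. The treatment with both agents is called the combination here. All agents were diluted in DMSO, so each group received the solvent. SHP1705 stabilizes cryptochrome proteins, the repressors of the circadian clock, and MG132 and carfilzomib inhibit the proteasome. The comparisons asked how each agent, alone and with the other, altered the transcripts of these cells.

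Ribosomes are assembled in the nucleolus. There RNA polymerase I transcribes a long precursor of the ribosomal RNAs, small nucleolar ribonucleoproteins (snoRNPs) guide its chemical modification, and processing factors cut and fold it into the small and the large subunit. In dividing tumour cells this pathway is a large consumer of transcription and energy, and many of its genes are known targets of the transcription factor MYC. The 43 members covered RNA polymerase I and its cofactors (5 genes), the C/D class of snoRNPs that methylate RNA (3), the H/ACA class that form pseudouridine (4), the small-subunit processome that handles the earliest precursor (9), later small-subunit factors (5), the PeBoW complex of large-subunit assembly (3), other large-subunit factors (10), nucleolar chaperones and scaffolds (3) and the RNA helicase DDX21.

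Several members carry a CACGTG sequence, the E-box letters, close to the start of transcription. As background, MYC with MAX and the clock activators CLOCK and BMAL1 are known to bind such letters, and cryptochrome acts on the latter pair. Promoters from 250 bases before to 50 bases after the start were given for 34 of the 43 members by RefSeq on GRCh38.p14, and the other 9 had no entry. A single start was used per gene, and for BYSL and PES1 it lay inside the annotated span of the gene. CACGTG, which reads the same on both strands, lay in 12 of the 34 (35.3%), against 2030 of all 27305 promoters of the same 300-base length (7.43%) and 1155 of the 11790 promoters of genes tested in the MG132 set (9.80%). Within the 50 bases after the start it lay in 10 of 34 members (29.4%), against 249 of 27305 promoters (0.912%), at positions 4 to 36. A match describes the letters of the promoter and is neither a shown binding site nor a cause. The windows below show 30 bases around the site, on the strand of the gene, for the 10 members with CACGTG that passed the test under SHP1705 or the combination in the MG132 set, and the capitals mark CACGTG. On GRCh38.p14 they lie at chr1:37595917-37595946 (-) for GNL2, chr2:28894658-28894687 (+) for WDR43, chr2:68157885-68157914 (+) for PNO1, chr2:130342900-130342929 (+) for IMP4, chr6:41921515-41921544 (+) for BYSL. The others lie at chr12:6568242-6568271 (-) for NOP2, chr22:30591880-30591909 (-) for PES1, chr3:51941892-51941921 (-) for RRP9, chr17:4555340-4555369 (-) for MYBBP1A, chr19:39846356-39846385 (-) for FBL.
GNL2: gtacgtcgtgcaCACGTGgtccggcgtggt
WDR43: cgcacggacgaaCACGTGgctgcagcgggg
PNO1: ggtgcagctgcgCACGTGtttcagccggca
IMP4: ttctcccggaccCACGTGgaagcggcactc
BYSL: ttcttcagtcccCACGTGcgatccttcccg
NOP2: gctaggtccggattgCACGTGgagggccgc
PES1: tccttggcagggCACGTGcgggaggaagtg
RRP9: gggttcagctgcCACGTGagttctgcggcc
MYBBP1A: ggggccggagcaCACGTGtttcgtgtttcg
FBL: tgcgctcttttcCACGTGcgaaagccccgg
In RRP9 the letters begin 5 bases before the start (position -5), and in the other 9 the site shown begins after it. IMP4 holds a further CACGTG at position -203, which is not shown. Under SHP1705 in the MG132 set 5 of 12 members with the letters fell and 7 of 22 without them, and the difference between members with and without was not tested. Of all genes tested 4.08% fell there. Under the combination of that set 7 of 12 rose and 2 fell with the letters, against 8 and 7 of 22 without, beside 29.2% and 29.7% of all genes. At 24 h 4 of 12 with the letters and 3 of 22 without fell under SHP1705, beside 2.51% of all genes. Under the combination at 24 h 6 of 12 with the letters rose and 0 fell, against 5 and 2 of 22 without, beside 13.0% and 14.3% of all genes. GAANNTTC and TTCNNGAA, letters of the heat shock element that read the same on both strands, were in 2 of 34 (5.88%) and 3 of 34 members (8.82%). They were in 6.87% and 7.84% of all promoters, and in 4.775% and 6.005% of those of genes tested in the MG132 set.

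Levels are given below in CPM, read counts relative to the TMM-adjusted library size, and in the order of replicates 1 to 3 of a group. Called means an adjusted p under 0.05 in edgeR's quasi-likelihood test, adjusted by Benjamini-Hochberg over all genes tested. Values after ± are standard errors of the log2 fold change. It is not stated whether the 3 independent experiments named by the submitters correspond to replicates or to sets. The p-values therefore rest on variation among libraries that could be technical. Counts are relative within a library, and fewer cells of a kind and less RNA per cell cannot be told apart. The MG132 libraries held 34200000 to 39300000 counts each. Those of the carfilzomib sets held 17800000 to 27700000 (8 h) and 18900000 to 34000000 (24 h). In the carfilzomib set at 8 h, heat shock and clock genes went against the labels of the libraries, so its values are given last, by label. The line's markers VIM, CD44, AXL, CAV1 and MSN were at 247 CPM or more in every library, ESR1 and PGR were at most 0.444 CPM, and ERBB2 (37.6 to 94.97 CPM) and EPCAM (5.99 to 26.3 CPM) were measurable. Of 16 markers of fibroblasts, blood, endothelium and liver, 8 passed the filter in the MG132 set. The summed level of all 16 there was 17.2 to 18.1 CPM in DMSO, 18.1 to 49.98 in SHP1705, 16.5 to 194 in MG132 and 119 to 266 in the combination. The excess over DMSO was almost all POSTN, a fibroblast matrix gene, since without it the sum was 15.6 to 24.7 CPM in all 12 libraries. POSTN counts were 10, 4 and 4 in DMSO, 11, 1075 and 1134 in SHP1705, 1337, 6 and 6972 in MG132, and 2876, 6865 and 8040 in the combination. The part of these POSTN counts in the results was not tested beyond the fits without 4 of those libraries given below. At 24 h the summed level was 13.4 to 20.2 CPM in all groups, with TTR and DCN at 0.

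The members spanned a wide range of levels. Per kilobase of exon, in DMSO of the MG132 set, the highest were NPM1, a histone and ribosome chaperone (487 CPM per kb), NCL, the nucleolin that binds nascent pre-rRNA (155 CPM per kb), and FBL, the methyltransferase fibrillarin (119.9 CPM per kb). The lowest were NAF1, an H/ACA assembly factor (5.17 CPM per kb), and PPAN, a large-subunit factor (5.38 CPM per kb). In the GENCODE annotation of GRCh38, 7 of the 43 genes (NCL, NOP56, NOP58, DKC1, WDR43, GNL3 and PPAN; 16.3%) held 25 snoRNA genes between them, against 255 of 19969 protein-coding genes (1.28%) with any. For 12 members over 10% of the exonic length overlapped another gene, from PNO1 with 10.4% to PPAN with 59.8%, NOP2 with 54.4% in between. As no source used here gives the strand setting of the counting, the counts of those 12 (NOP2, PPAN, NHP2, HEATR1, NOB1, NIP7, NOP16, GTPBP4, POLR1C, NOP14, RRS1 and PNO1) may hold reads of their neighbours. They may also lack reads that fall on both genes, so the levels per kb of these genes, PPAN among them, are uncertain.

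SHP1705 alone lowered some of the ribosome biogenesis transcripts by a small amount. In the MG132 set 13 of the 43 members (30.2%) fell and 0 rose, beside 4.08% of all 16591 tested genes that fell and 3.45% that rose (7.53% in all). The median log2 fold change of the members was -0.10, against -0.00 for all genes, and 3 of 43 members had a positive value. Each SHP1705 library had only 2 to 5 of the 43 members above their DMSO mean. Summed over the members, the level was 7259 to 7365 CPM in DMSO and 6780.4 to 6862 CPM in SHP1705.

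RRP9, which binds the U3 snoRNA of the processome, was at 67.7, 66.7 and 61.7 CPM in DMSO and at 56.0, 56.7 and 53.2 CPM in SHP1705. All 3 treated libraries were below all 3 controls, and the log2 fold change was -0.24 ± 0.04 (adjusted p = 0.00186). NOP56, a core scaffold of the C/D snoRNP, was at 151, 146 and 150.4 CPM in DMSO and at 129, 132 and 126 CPM in SHP1705. It fell by 0.21 ± 0.03 on the log2 scale (adjusted p = 0.00125), again without overlap. WDR43, a processome subunit, was at 129, 132 and 133 CPM in DMSO and at 116, 113 and 120.1 CPM in SHP1705. Its groups did not overlap and it fell by 0.17 ± 0.03 (adjusted p = 0.00267). BOP1, the PeBoW subunit on chromosome 8, was at 149.8, 142 and 144 CPM in DMSO and at 125, 132 and 131 CPM in SHP1705. All SHP1705 libraries were lower, and the log2 fold change was -0.17 ± 0.04 (adjusted p = 0.00841).

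The transcripts of the abundant nucleolar proteins moved by less. NCL was at 1084, 1070.1 and 1058 CPM in DMSO and at 975, 1017 and 999.7 CPM in SHP1705, a log2 fold change of -0.10 ± 0.03 (adjusted p = 0.0177). NPM1 was at 1880.4, 1910.0 and 1802 CPM in DMSO and at 1775, 1652 and 1746 CPM in SHP1705, and fell by 0.11 ± 0.03 (adjusted p = 0.0146). The groups of neither gene overlapped. The other called members were PPAN, NOP16, MYBBP1A (a nucleolar MYB-binding protein), FBL, LYAR, BYSL (bystin, a late small-subunit factor) and GNL3 (nucleostemin), with log2 fold changes from -0.23 for PPAN to -0.12 for GNL3. By role, the C/D snoRNPs had 2 of 3 members lower, the chaperones 2 of 3, the later small-subunit factors 2 of 5, the large-subunit factors 3 of 10 and the processome 2 of 9. PeBoW and RNA polymerase I had 1 lower member each, and the 4 H/ACA members and DDX21 had none. UTP20, a large scaffold of the processome, was the only member that was higher in every SHP1705 library (80.6 to 82.6 CPM against 76.2 to 77.7 CPM, log2 fold change 0.09, not called). Groups did not overlap for 25 members in the lower direction, beside 13.1% of all genes, and for 1 in the higher direction, beside 12.8%. DESeq2 also called 13 members.

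These small differences rested on all the libraries. Without any 1 of the 6 DMSO and SHP1705 libraries, 5 to 7 members were called, and without the 4 SHP1705 and MG132 libraries that held over 100 POSTN counts, 0 were called (0.853% of all genes). That last fit keeps 1 SHP1705 library, assumed to vary as the other groups do, and the median of the members was -0.07. RRP9, NOP56 and WDR43 were called under all other settings tried: each single library left out, another scaling, no filter, DESeq2, a replicate block and a fit of only these groups.

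The same direction was measured at 24 h in the carfilzomib set, with other control libraries. SHP1705 lowered 9 of 43 members (20.9%), beside 2.51% of all 16183 tested genes, and 0 rose, beside 1.95%. The members' median was -0.14, against -0.00 for all genes, and 3 members had a positive value. Between 4 and 7 of the members were above their DMSO mean in each SHP1705 library. The summed level was 6084 to 6118 CPM in DMSO and 5414 to 5552 CPM in SHP1705. For 22 members the SHP1705 libraries all lay below the DMSO libraries, beside 12.5% of all genes.

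BOP1 and RRP9 had the largest falls. BOP1 was at 204, 194 and 206 CPM in DMSO and at 140.1, 131 and 144 CPM in SHP1705, and RRP9 at 65.8, 61.0 and 65.2 CPM in DMSO and at 41.2, 46.2 and 44.6 CPM in SHP1705. Both were well separated, with log2 fold changes of -0.54 ± 0.06 (adjusted p = 9.26e-06) for BOP1 and -0.54 ± 0.07 (adjusted p = 3.11e-05) for RRP9. NCL was at 848, 846 and 819 CPM in DMSO and at 723, 713 and 665 CPM in SHP1705, a fall by 0.26 ± 0.04 (adjusted p = 0.000177) with no overlap. NOP56 was at 173, 178 and 180.4 CPM in DMSO and at 143, 146 and 151 CPM in SHP1705, and fell by 0.27 ± 0.05 (adjusted p = 0.000422). The other called members were BYSL, MYBBP1A, RRP12, NOP2 and NPM1, with log2 fold changes between -0.22 and -0.14. RRP12 is a late small-subunit export factor and NOP2 a large-subunit methyltransferase.

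Of the 13 members that fell at 8 h, 7 also fell at 24 h (53.8% of the 13 and 77.8% of the 9): NCL, NOP56, NPM1, BOP1, RRP9, BYSL and MYBBP1A. The same overlap was not computed over all genes, so whether it is particular to the members was not tested. The difference between the SHP1705 effects of the 2 sets was called for 0 of 43 members, beside 0.0230% of all 17389 genes in the joint fit (4 genes; 0.00575% with a higher and 0.0173% with a lower value at 24 h). At an unadjusted p under 0.05 there were 2 members, and DESeq2 called 0. The joint fit also holds the carfilzomib set at 8 h. The fitted common coefficient of variation between libraries of a group was 0.172 in that set and 0.112 in the joint fit. It was 0.0455 in the MG132 set and 0.0672 in the carfilzomib set at 24 h. Without the 12 libraries of the carfilzomib set at 8 h 1 member was called, beside 1.2% of all genes: BOP1 fell further at 24 h, by 0.38 ± 0.08 (adjusted p = 0.00849). The 24 h count was 4 without DMSO replicate 1, 5 without DMSO replicate 2 or SHP1705 replicate 3, and 15 without carfilzomib replicate 3. NCL, NOP56, BOP1 and RRP9 were called under all those settings.

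**Figure D1:**
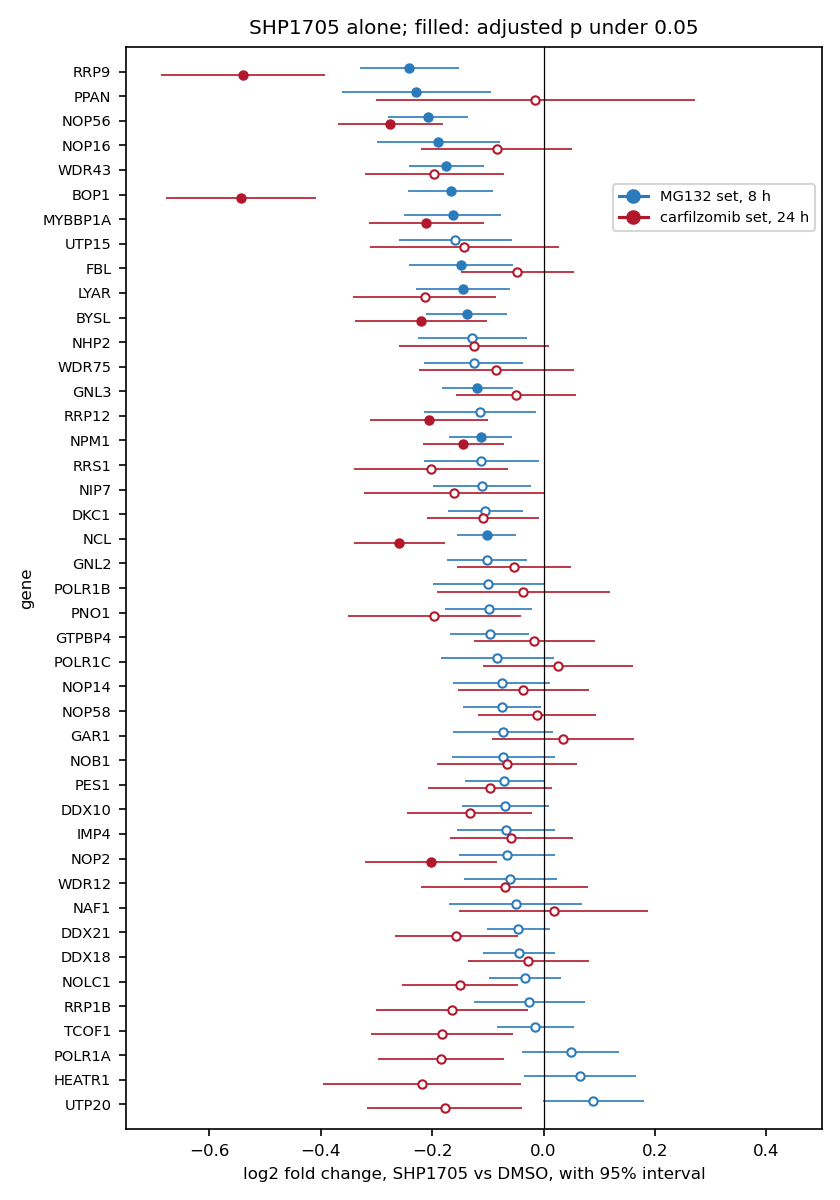
Log2 fold change of each of the 43 members under SHP1705 alone against DMSO (x axis, with 95% intervals; genes on the y axis), in the MG132 set at 8 h (blue) and the carfilzomib set at 24 h (red). Filled points passed the test (13 at 8 h, 9 at 24 h), all of them left of 0, and BOP1 and RRP9 at 24 h lie farthest left at -0.54.

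Of 120 other ribosome biogenesis genes tested, 20 fell at 8 h (median -0.06) and 12 at 24 h (median -0.06), and 0 rose at either time. At 8 h the falls with the smallest p were the processome gene UTP4 (-0.20 ± 0.03), MRTO4 (-0.19 ± 0.03), TRMT112 (-0.19 ± 0.04) and GRWD1 (-0.19 ± 0.04). At 24 h they were CCDC86 (-0.40 ± 0.06), TSR3 (-0.44 ± 0.07), NOL6 (-0.32 ± 0.05) and UTP18 (-0.32 ± 0.05). Of 78 cytosolic ribosomal protein genes, 64 fell at 8 h (median -0.19) and 1 at 24 h (median -0.04). MYC itself was at 86.1, 88.8 and 92.6 CPM in DMSO and at 81.5, 79.2 and 79.1 CPM in SHP1705 at 8 h, a fall by 0.16 ± 0.04 (adjusted p = 0.0143). At 24 h MYC was at 144 to 146 CPM in DMSO and at 137 CPM in all 3 SHP1705 libraries, which was not called (-0.08 ± 0.06, adjusted p = 0.532). PER3, a clock gene read here as the check that SHP1705 acted, was at 13.8 to 14.7 CPM in DMSO and 4.46 to 5.07 CPM in SHP1705 at 8 h, and at 18.9 to 22.9 and 0.709 to 1.43 CPM at 24 h.

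MG132 alone at 100 nM changed no member past the test. It called 0 of 43, beside 0 of all 16591 genes (0%), with 4 members and 1574 of all genes at an unadjusted p under 0.05. The median of the members was -0.02 and their values ranged from -0.13 to 0.09. DESeq2 called 1 member, BOP1, lower (-0.13 ± 0.04, adjusted p = 0.046). BOP1 was at 136, 126 and 136 CPM in MG132, all below the 142 to 149.8 CPM of DMSO. HSPA1A, the stress-inducible HSP70, was at 608, 613 and 926 CPM with MG132 against 533 to 615 CPM in DMSO.

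With SHP1705 and MG132 together some members rose and others fell, as was so among all genes. Here 18 of 43 members (41.9%) rose and 11 (25.6%) fell, while 29.2% of all tested genes rose and 29.7% fell. With 58.8% of all genes called in this comparison, the share of lower members was near the background, and the share of higher members was above it. The median was 0.07 against -0.01 for all genes. HSPA1A was at 38927, 40611 and 39707 CPM in the combination, and HSPA1A and HSPA1B together took 7.80 to 8.01% of the counts against 0.157 to 0.178% in DMSO. The members' raw share of counts was 0.703 to 0.711% in the combination and 0.760 to 0.772% in DMSO, whereas their summed TMM-scaled level was 8272 to 8397 and 7259 to 7365 CPM. The direction of the sum thus depended on that scaling. Relative log expression factors in place of TMM called 29 members as well. They too rescale the libraries, so they do not replace a comparison of raw shares. Rises and falls of single members below are on the TMM scale, and their raw shares were not compared.

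GTPBP4, a GTPase of the large-subunit precursor (chr10:988434-1019932, + strand), rose most. It was at 132, 125 and 131 CPM in DMSO and at 211, 211 and 220.4 CPM in the combination, and the log2 fold change was 0.73 ± 0.03 (adjusted p = 4.1e-13). The 3 combination libraries all lay above the 3 controls. NOP58, the partner of NOP56 in the C/D snoRNP (chr2:202265763-202303661, + strand), was at 135, 126 and 129 CPM in DMSO and at 209, 207 and 199 CPM in the combination. It rose by 0.65 ± 0.03 (adjusted p = 1.85e-12), while NOP56 (153, 156 and 151 CPM) and FBL (288, 285 and 256 CPM) of the same particle were not called. BYSL was at 116, 117 and 124 CPM in DMSO and at 170.3, 177 and 178 CPM in the combination, a rise of 0.56 ± 0.03 (adjusted p = 3.11e-11). WDR43 was at 173, 178 and 178 CPM, above its DMSO libraries by 0.43 ± 0.03 (adjusted p = 6.55e-10).

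RRS1, a large-subunit assembly factor (chr8:66429014-66430733, + strand, 1 exon), fell most. It was at 34.0, 32.5 and 33.0 CPM in DMSO and at 18.1, 17.3 and 15.9 CPM in the combination, a log2 fold change of -0.95 ± 0.05 (adjusted p = 7.6e-12). DDX10, a helicase of the processome (chr11:108665069-108940927, + strand), was at 105, 99.6 and 102 CPM in DMSO and at 84.1, 83.6 and 77.4 CPM in the combination. It fell by 0.32 ± 0.04 (adjusted p = 4.06e-07) with no overlap. POLR1B, a catalytic core subunit of RNA polymerase I (chr2:112542036-112579818, + strand), was at 54.4, 52.8 and 48.5 CPM in DMSO and at 40.7, 40.5 and 44.9 CPM in the combination. Its groups did not overlap and it fell by 0.30 ± 0.05 (adjusted p = 2.26e-05). RRP9 had a log2 fold change of -0.24 ± 0.04 (adjusted p = 0.000101). PPAN was at 14.4, 13.4 and 13.9 CPM in DMSO and at 11.3, 11.8 and 10.8 CPM in the combination, a fall by 0.30 ± 0.07 (adjusted p = 0.00059). PPAN counts may hold reads of neighbours, which overlap 59.8% of its exonic length, or lack reads shared with them.

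By role, the 3 nucleolar chaperones all rose: NOLC1, a snoRNP chaperone, by 0.34 ± 0.03, NPM1 by 0.23 ± 0.03 and NCL by 0.20 ± 0.03. NCL was at 1197, 1220.3 and 1268 CPM and NPM1 at 2213, 2178 and 2185 CPM, above every DMSO library of those genes. Of the 5 later small-subunit factors, BYSL, PNO1 (0.29 ± 0.04), NOB1, the nuclease that makes the last cut of the small-subunit RNA (0.28 ± 0.04), and RRP12 (0.23 ± 0.05) rose, and LYAR fell by 0.11 ± 0.04. Of the 9 processome genes 3 rose (WDR43, UTP15, IMP4) and 3 fell (DDX10, RRP9, HEATR1). Of the 10 large-subunit factors 4 rose (GTPBP4, GNL2, GNL3, NOP2) and 2 fell (RRS1, PPAN). In PeBoW, PES1 rose by 0.33 ± 0.03 while WDR12 fell by 0.22 ± 0.04 and BOP1 by 0.12 ± 0.04. Of all genes 29.2% rose and 29.7% fell in this comparison, and no role was tested as a set. The H/ACA gene GAR1 rose by 0.24 ± 0.04 and its partner NHP2 fell by 0.13 ± 0.05. None of the 5 RNA polymerase I genes rose, and MYBBP1A fell with POLR1B. DDX21, the helicase that couples RNA polymerase I with processing, was at 435, 418 and 435 CPM in DMSO and at 538, 559 and 571 CPM in the combination (0.37 ± 0.03). The other 14 members, among them POLR1A, TCOF1 (treacle), DDX18, NIP7, RRP1B and NAF1, were not called, with log2 fold changes from -0.08 for WDR75 to 0.12 for NOP16.

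The upstream sequences of 5 of these genes are given: GTPBP4, which rose most, DDX10, the member with the largest fall among those with a promoter entry, and NCL, NPM1 and POLR1B, for which the combination had the opposite direction in the carfilzomib set at 24 h. Each is the 250 bases before the RefSeq start used here on GRCh38.p14, on the strand of the gene. For NPM1 that start lay inside the annotated span of the gene. They lie at chr10:988184-988433 (+) for GTPBP4, chr11:108664819-108665068 (+) for DDX10, chr2:231464485-231464734 (-) for NCL, chr5:171387599-171387848 (+) for NPM1 and chr2:112541786-112542035 (+) for POLR1B. None of the 5 promoters holds CACGTG. The capitals mark CCGGAAG or its reverse complement, letters of the ETS family, at position -57 of GTPBP4 and -126 of POLR1B, and the other 3 hold 0 matches.
GTPBP4: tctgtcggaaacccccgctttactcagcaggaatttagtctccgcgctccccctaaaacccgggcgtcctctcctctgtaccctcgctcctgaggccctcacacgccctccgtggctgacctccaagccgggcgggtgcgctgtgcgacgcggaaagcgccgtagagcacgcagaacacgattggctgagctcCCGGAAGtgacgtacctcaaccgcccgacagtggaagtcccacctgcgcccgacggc
DDX10: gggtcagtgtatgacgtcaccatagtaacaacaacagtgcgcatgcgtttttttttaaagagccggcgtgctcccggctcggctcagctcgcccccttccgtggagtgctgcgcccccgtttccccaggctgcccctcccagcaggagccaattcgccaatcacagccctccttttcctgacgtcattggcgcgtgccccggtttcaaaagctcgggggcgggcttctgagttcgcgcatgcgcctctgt
NCL: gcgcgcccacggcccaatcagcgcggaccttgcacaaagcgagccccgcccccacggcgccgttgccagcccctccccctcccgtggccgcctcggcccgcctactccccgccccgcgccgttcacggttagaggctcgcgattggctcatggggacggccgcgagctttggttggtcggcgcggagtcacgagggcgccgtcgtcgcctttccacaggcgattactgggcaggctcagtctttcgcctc
NPM1: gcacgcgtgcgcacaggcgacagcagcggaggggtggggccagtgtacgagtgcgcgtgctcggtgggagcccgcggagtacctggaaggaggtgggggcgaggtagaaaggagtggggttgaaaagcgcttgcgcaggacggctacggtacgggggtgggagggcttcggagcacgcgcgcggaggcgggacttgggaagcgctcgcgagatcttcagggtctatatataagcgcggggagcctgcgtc
POLR1B: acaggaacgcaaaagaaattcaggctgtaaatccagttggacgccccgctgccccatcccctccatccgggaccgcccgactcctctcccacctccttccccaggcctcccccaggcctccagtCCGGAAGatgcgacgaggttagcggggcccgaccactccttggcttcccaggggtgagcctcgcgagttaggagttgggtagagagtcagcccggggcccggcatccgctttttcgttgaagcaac
CCGGAAG on either strand was in 9 of 34 member promoters (26.5%), against 10.7% of all promoters and 18.3% of those of tested genes. In the MG132 combination, GTPBP4 with these letters rose and POLR1B with them fell.

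**Figure D2:**
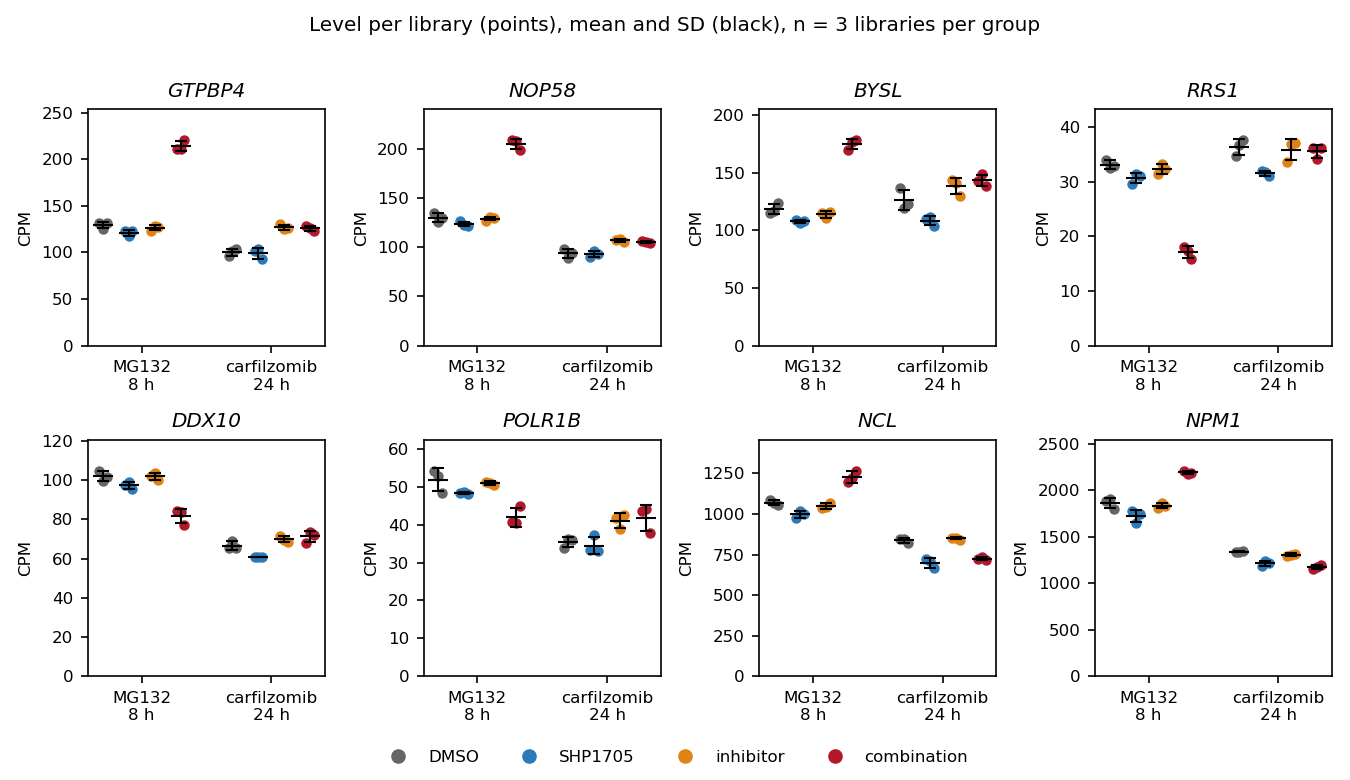
Level in each library (y axis, CPM from 0) of 8 members, by treatment within the MG132 set at 8 h and the carfilzomib set at 24 h (x axis), with mean and SD in black over 3 libraries. In the MG132 set the combination libraries stand above the rest for GTPBP4 (211 to 220.4 CPM), NOP58 and BYSL and below them for RRS1 (15.9 to 18.1 CPM), and at 24 h they lie closer to DMSO.

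Against MG132 alone, the combination gave nearly the same picture, with 23 members higher and 10 lower, beside 28.2% and 28.9% of all genes (57.2% together). This comparison shares the combination libraries with the one above. GTPBP4 was higher by 0.76 ± 0.03 (adjusted p = 2.27e-13), NOP58 by 0.67 ± 0.03 and BYSL by 0.62 ± 0.03, and RRS1 was lower by 0.92 ± 0.05 (RRS1 log2 fold change -0.92, adjusted p = 1.34e-11). NOP56, FBL, DKC1 (dyskerin, the pseudouridine synthase), NOP14, NOP16 and POLR1C also rose here, and UTP20 and WDR75 also fell. These were small, from 0.09 for NOP56 to 0.24 for NOP16 among the rises. The NOP56 value was 0.05 without MG132 replicate 1, and that of POLR1C was 0.10 without combination replicate 1. Without combination replicate 3 NOP14 was at 0.05. UTP20 lay between -0.17 and -0.08 as settings changed, and lost its call without MG132 replicate 2 or combination replicate 1 or 2. Over all settings, the exclusion for POSTN below among them, NOP14 lost its call in 16, NOP56 in 11 and WDR75 in 8. FBL lost it in 7 and POLR1C in 3.

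The interaction, which is the combination minus SHP1705 minus MG132 plus DMSO on the log2 scale, was positive for 26 members and negative for 5, beside 24.7% and 24.2% of all genes. The members' median was 0.22, against -0.01 for all genes. GTPBP4 exceeded the sum of the separate effects by 0.85 ± 0.05 (adjusted p = 1.72e-11), BYSL by 0.76 ± 0.05 and NOP58 by 0.74 ± 0.05. BYSL and WDR43 were among the members that SHP1705 alone lowered and the combination raised. The negative terms were RRS1 (-0.81 ± 0.07), DDX10 (-0.25 ± 0.05), HEATR1 (-0.23 ± 0.07), UTP20 (-0.20 ± 0.06) and POLR1B (-0.18 ± 0.07). FBL, NOP56 and BOP1, lower under SHP1705, had positive interaction terms of 0.27 ± 0.06, 0.30 ± 0.05 and 0.18 ± 0.05. The counts for the combination changed little without 1 library: 27 to 31 members against DMSO, 28 to 32 against MG132 and 28 to 31 for the interaction. Under every setting except the exclusion for POSTN, 25, 27 and 27 members kept their call. NOP2, HEATR1, NHP2 and LYAR lost the call against DMSO in some setting. NOP2, NOP14, NIP7 and POLR1B so lost that of the interaction. Of the 7 libraries with over 100 POSTN counts 3 were those of the combination, which stayed in every fit, so the rises and falls under the combination were not measured apart from POSTN. Without the other 4, which leaves 1 MG132 and 1 SHP1705 library, the combination against MG132 called 23 members beside 44.4% of all genes, and the interaction 25 beside 34% of all genes. NOP56, FBL, DKC1, NOP14, NOP16, POLR1C, WDR75, WDR12, RRP9 and PPAN lost the call against MG132, and DKC1, NOP14, NIP7, POLR1B, POLR1C and IMP4 lost that of the interaction.

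Of the 120 other ribosome biogenesis genes 70 rose in the combination and 17 fell (median 0.15), beside the 29.2% and 29.7% of all genes. RSL24D1, a large-subunit export factor, rose by 1.14 ± 0.04 (adjusted p = 1.01e-15) and MPHOSPH10, a U3 protein of the processome, by 1.00 ± 0.05 (adjusted p = 2.84e-13). IMP3, which binds MPHOSPH10 and U3, fell by 1.37 ± 0.07 (adjusted p = 9.86e-13), GNL1 by 0.52 ± 0.03 and HEATR3 by 0.80 ± 0.09. UBTF, the upstream binding factor of RNA polymerase I, fell by 1.40 ± 0.04 (adjusted p = 2.21e-16), and of 18 RNA polymerase I genes 6 rose and 7 fell. Of 78 ribosomal protein genes 45 rose and 1 fell (median 0.12). MYC was at 147, 149 and 146 CPM in the combination, 0.73 ± 0.04 above DMSO (adjusted p = 1.99e-12), and of 11 genes of the MYC network 5 rose and 3 fell.

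Carfilzomib alone at 24 h raised 10 of 43 members (23.3%) and lowered 1, beside 10.1% and 11.4% of all genes. The median was 0.11 against 0.00. RRP12 was at 89.8, 90.1 and 90.9 CPM in DMSO and at 121, 120.4 and 111 CPM in carfilzomib, a rise of 0.38 ± 0.05 (adjusted p = 7.11e-06). GTPBP4 was at 96.2, 101 and 103 CPM in DMSO and at 130.0, 125 and 126 CPM in carfilzomib, a rise of 0.34 ± 0.05 (adjusted p = 4.47e-05). Neither pair of groups overlapped. UTP20 was at 43.3, 46.6 and 44.4 CPM in DMSO and at 54.8, 52.8 and 61.3 CPM in carfilzomib (0.33 ± 0.07, adjusted p = 0.000872). PNO1 was at 35.9, 33.8 and 33.3 CPM in DMSO and at 42.3, 39.8 and 45.9 CPM in carfilzomib (0.31 ± 0.07, adjusted p = 0.00347), with all carfilzomib libraries higher. UTP15, GAR1, POLR1B, NOP58, NOLC1 and GNL2 rose by 0.14 to 0.31. BOP1 fell by 0.26 ± 0.06 (adjusted p = 0.00495), from 194 to 206 CPM in DMSO to 168, 188 and 146 CPM in carfilzomib. Without carfilzomib replicate 3 the BOP1 value was -0.17 (adjusted p = 0.0207). Without DMSO replicate 3 the count was 7, and RRP12, GTPBP4, UTP20, PNO1, UTP15 and BOP1 were called under all those settings. Of the 120 other biogenesis genes 44 rose and 2 fell (median 0.13), led by EMG1 (0.51 ± 0.06) and FTSJ3 (0.37 ± 0.04), while 26 of 78 ribosomal protein genes fell and 0 rose.

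In the combination with carfilzomib at 24 h 13 members (30.2%) rose and 3 fell, beside 13.0% and 14.3% of all genes. RRP12 was at 128, 122 and 123 CPM, 0.46 ± 0.05 above DMSO (adjusted p = 2.53e-07), and GTPBP4 at 128, 126 and 123 CPM, 0.33 ± 0.05 above it (adjusted p = 4.37e-05). POLR1C, shared by RNA polymerases I and III, was at 64.0, 62.0 and 66.8 CPM in DMSO and at 72.7, 78.5 and 78.0 CPM in the combination (0.25 ± 0.06, adjusted p = 0.00524). All 3 genes were without overlap. BOP1 was at 156, 154 and 151 CPM, 0.39 ± 0.06 below DMSO (BOP1 log2 fold change -0.39, adjusted p = 7.54e-05). NCL was at 722, 738 and 716 CPM (-0.21 ± 0.04, adjusted p = 0.00034) and NPM1 at 1152, 1176 and 1191 CPM (-0.19 ± 0.04, adjusted p = 0.00021), both below every DMSO library. The other rises were UTP15, POLR1B, PNO1, NOP2, BYSL, PES1, GNL2, GAR1, NOP58 and IMP4, by 0.15 to 0.26. The 27 members not called lay between -0.17 for RRP9 and 0.12 for POLR1A. By role, the later small-subunit factors had 3 of 5 higher, RNA polymerase I 2 of 5, the large-subunit factors 3 of 10, and the chaperones 2 of 3 lower. The count was 9 without DMSO replicate 2 or combination replicate 1 and 10 without combination replicate 2. Those 6 named with values (RRP12, GTPBP4, POLR1C, BOP1, NCL, NPM1) were called under all those settings. Of the 120 other biogenesis genes 35 rose and 4 fell, with FTSJ3 (0.51 ± 0.04) and TRMT112 (0.51 ± 0.05) ahead, and of 78 ribosomal protein genes 1 rose and 39 fell.

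Against carfilzomib alone the combination lowered 4 members and raised 0, beside 4.67% and 4.36% of all genes (9.02% together). These were RRP9 (-0.34 ± 0.07, adjusted p = 0.00295), NCL (-0.23 ± 0.04, adjusted p = 0.000658), UTP20 (-0.22 ± 0.07, adjusted p = 0.0328) and NPM1 (-0.15 ± 0.04, adjusted p = 0.00716). RRP9 was at 78.9, 73.7 and 63.8 CPM in carfilzomib and at 55.1, 59.0 and 57.0 CPM in the combination, and UTP20 at 52.8 to 61.3 and 47.2 to 48.9 CPM. The groups of both were apart. Without carfilzomib replicate 2 the count was 7. The interaction at 24 h was called for 1 member, BOP1 (0.42 ± 0.09, adjusted p = 0.0387), beside 0.482% of all genes. BOP1 fell in each of the 3 treated groups, and the combination was less than the sum of the separate falls. This call was lost without any 1 of 9 of the 12 libraries (each DMSO and combination library, SHP1705 replicates 2 and 3 and carfilzomib replicate 1), and 3 members were called without carfilzomib replicate 2.

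**Figure D3:**
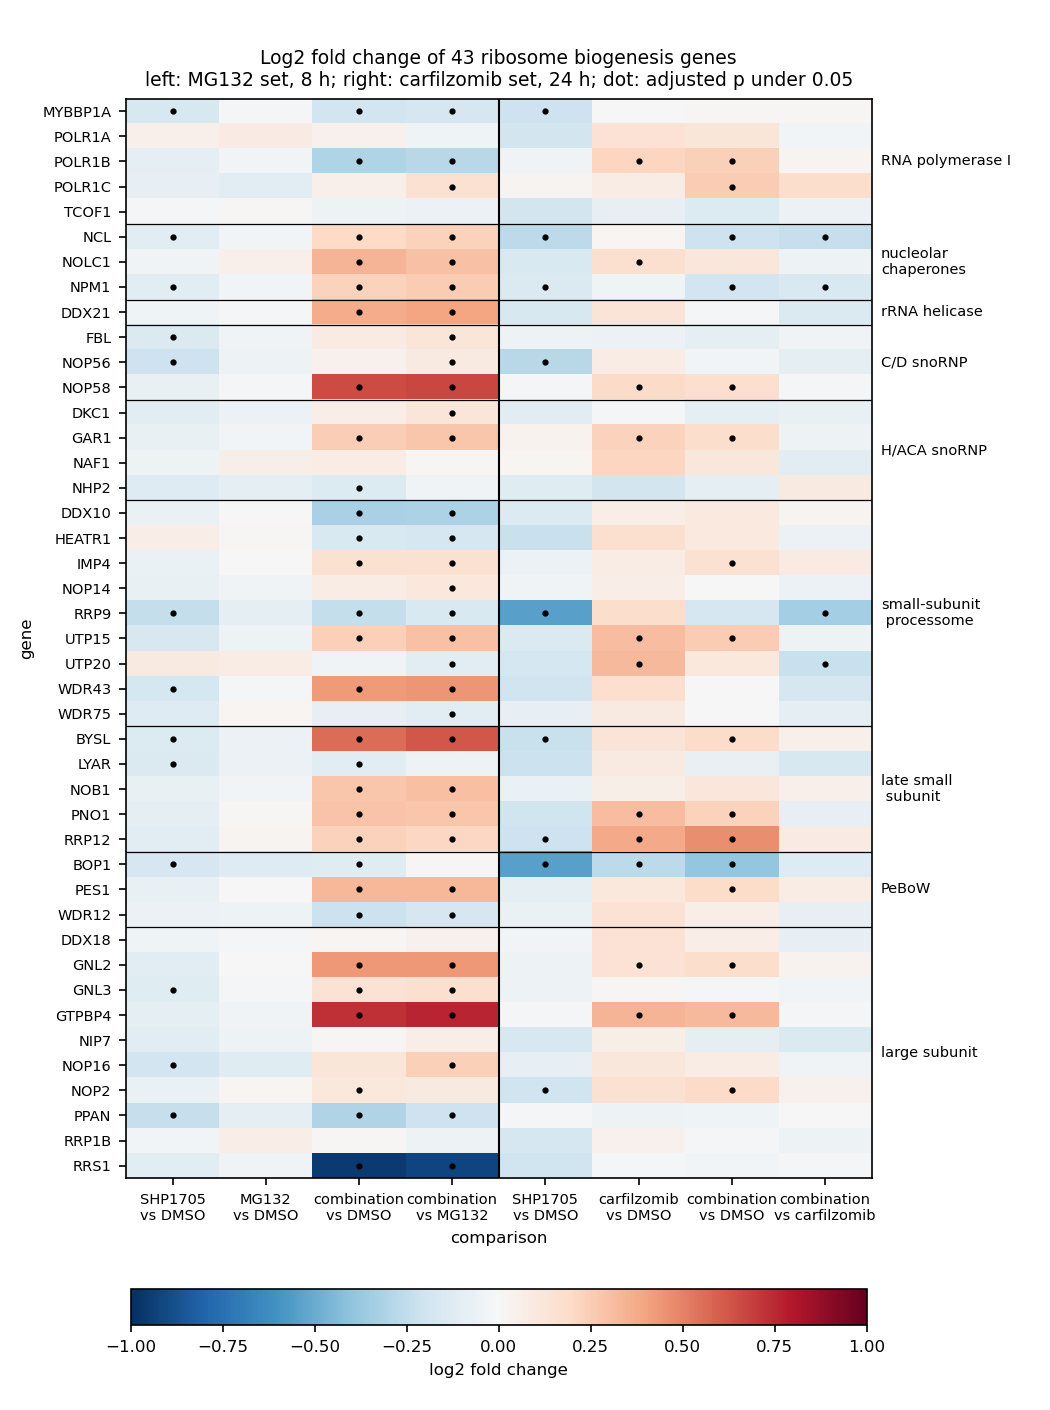
Log2 fold change (colour, blue lower, red higher) of the 43 members (y axis, grouped by role) in 4 comparisons of the MG132 set at 8 h (left) and of the carfilzomib set at 24 h (right), with a dot for each adjusted p under 0.05. The SHP1705 columns hold only lower calls (13 and 9), the MG132 column holds 0 calls, and the combination column of the MG132 set holds the widest range, from -0.95 for RRS1 to 0.73 for GTPBP4.

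The combination was compared between the MG132 set at 8 h and the carfilzomib set at 24 h, in which time, inhibitor, dose and set differ together and cannot be told apart. The sets share no control library. Of the 18 members that rose in the MG132 set 11 also rose at 24 h with carfilzomib (61.1% of the 18 and 84.6% of the 13): NOP58, NOP2, PES1, RRP12, UTP15, BYSL, GNL2, GTPBP4, GAR1, PNO1 and IMP4. This overlap too was not computed over all genes. The difference itself was called for 12 members, 4 more positive and 8 more negative at 24 h, beside 13.2% and 12.6% of all 17389 genes. The total was 27.9% of the members against 25.8% of all genes, near the background. This joint fit includes the more variable carfilzomib set at 8 h.

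On the TMM scale NCL and NPM1 rose in the MG132 combination and fell in the carfilzomib combination. The differences were -0.41 ± 0.08 (adjusted p = 0.000283) and -0.43 ± 0.08 (adjusted p = 0.000135). Their rises at 8 h were small, and whether they hold in raw shares of the counts was not tested. POLR1B fell in the former and rose in the latter, a difference of 0.54 ± 0.15 (adjusted p = 0.00716). Its libraries at 24 h were at 33.8, 36.3 and 36.1 CPM in DMSO and at 43.5, 44.1 and 37.7 CPM in the combination. RRS1, which fell most at 8 h, was at 34.7, 36.7 and 37.6 CPM in DMSO and at 36.2, 34.3 and 36.2 CPM in the combination at 24 h, where the groups overlapped. The RRS1 difference was 0.92 ± 0.32 (adjusted p = 0.0338). NOP58 (-0.49 ± 0.09), WDR43 (-0.43 ± 0.11), GTPBP4 (-0.40 ± 0.12), DDX21 (-0.39 ± 0.12), BYSL (-0.38 ± 0.12) and GNL2 (-0.26 ± 0.09) had smaller values at 24 h, and DDX10 (0.42 ± 0.10) and WDR12 (0.28 ± 0.10) larger ones. HSPA1A was at 1143 to 1289.7 CPM in the carfilzomib combination at 24 h and at 38927 to 40611 CPM in the MG132 combination at 8 h, so the stress marker moved with this comparison, and its part in it was not tested. Without the 12 libraries of the carfilzomib set at 8 h 21 members were called (7 positive, 14 negative), all 12 above among them, while the share of all genes called was 39.4%. The WDR12 call was lost without any 1 of the 18 DMSO, SHP1705 and combination libraries of these sets, and under the replicate block (adjusted p = 0.0527). The RRS1 call was lost without any 1 of 11 of them and under the block (adjusted p = 0.0734).

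**Figure D4:**
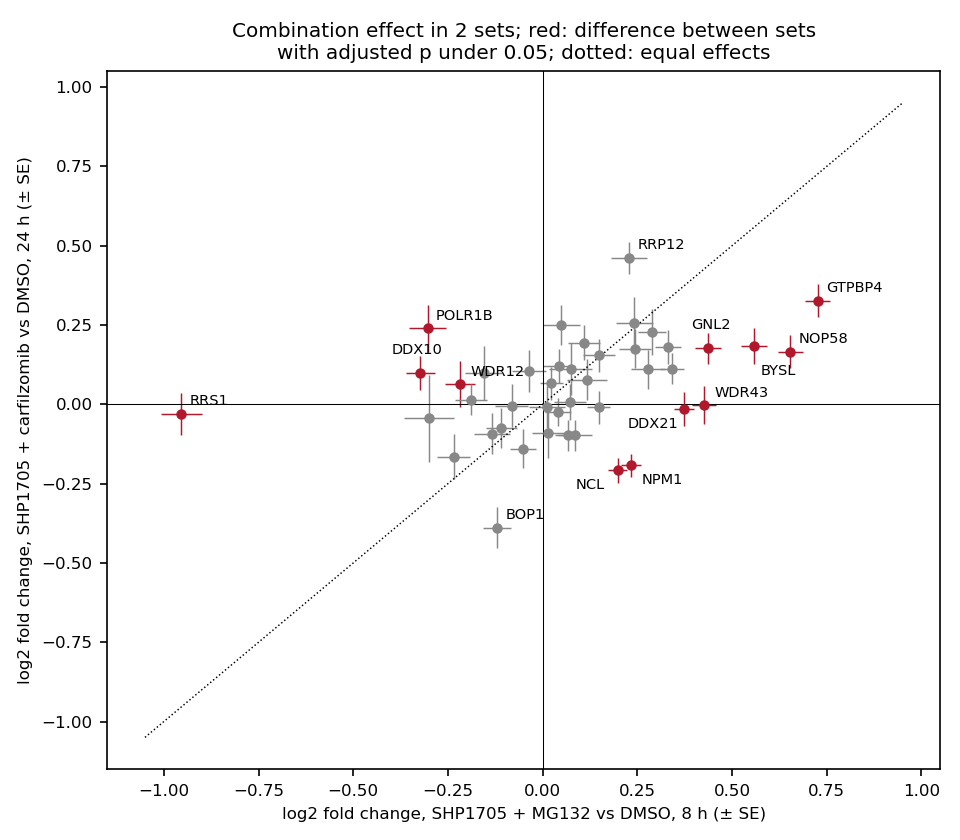
Log2 fold change of the combination against DMSO in the MG132 set at 8 h (x axis) and the carfilzomib set at 24 h (y axis) for 43 members, with SE bars and a dotted line of equal effects. Red marks the 12 members whose difference between the sets passed the test, among them RRS1 at the far left (-0.95) and NCL and NPM1 at the lower right.

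In the carfilzomib set at 8 h the libraries went against their labels. HSPA1A was at 14559, 23605 and 23242 CPM in the libraries labelled DMSO and at 792, 726 and 896 CPM in those labelled carfilzomib. Within the libraries labelled SHP1705 it was at 19856, 705 and 693 CPM, and within those labelled combination at 892, 12019.5 and 15052 CPM. PER3, low under SHP1705 in the other sets, was at 8.19, 2.06 and 1.55 CPM in the libraries labelled DMSO, at 2.25, 9.62 and 7.91 CPM in those labelled SHP1705, at 6.78, 1.26 and 1.69 CPM in those labelled carfilzomib and at 1.92, 7.69 and 8.20 CPM in those labelled combination. In each labelled group the library of replicate 1 stood apart from the other 2 in HSPA1A, PER3 or both. Between any 2 of the 12 libraries the smallest difference in counts (chi-square per degree of freedom 3.28) was between those labelled DMSO replicate 1 and combination replicate 2. The labels were kept as given and no library was moved to another group, so this set gives no direction for a drug.

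Among libraries as labelled, carfilzomib against DMSO called 6 members lower and 0 higher, beside 11.3% and 11.7% of all 15577 genes, so the share of lower members (14.0%) was near the background. GTPBP4 was at 219.8, 249 and 256 CPM in the libraries labelled DMSO and at 155, 181 and 178 CPM in those labelled carfilzomib (-0.50 ± 0.14, adjusted p = 0.04). The same adjusted p was given for BYSL (-0.48 ± 0.14), NOLC1 (-0.42 ± 0.12), PNO1 (-0.37 ± 0.09), NOP58 (-0.36 ± 0.10) and GNL2 (-0.33 ± 0.09). RRS1 was at 28.6, 18.6 and 14.9 CPM in the libraries labelled DMSO, 13.4, 37.3 and 40.1 CPM in those labelled SHP1705, 38.5, 45.2 and 45.8 CPM in those labelled carfilzomib and 47.3, 27.1 and 27.4 CPM in those labelled combination. The 3 lowest RRS1 values were in the 3 libraries with the highest HSPA1A values. For SHP1705 against DMSO, the combination against DMSO, the combination against carfilzomib and the interaction, all as labelled, edgeR called 0 members (0% of all genes). At an unadjusted p under 0.05 there were 6, 2, 2 and 9 members, beside 14.4%, 9.33%, 5.76% and 25.4% of all genes, so the members were at or below the background. DESeq2 called 0, 0, 0 and 2 members.

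These counts depended on the libraries kept. Without the libraries labelled SHP1705 replicate 1 and combination replicate 1, carfilzomib against DMSO called 17 members (4 higher, 13 lower) beside 47.3% of all genes, and SHP1705 against DMSO 10 (4 higher, 6 lower) beside 36.3%. Without the library labelled replicate 1 of every group the counts were 22 beside 53.8% of all genes and 20 beside 49.3%. Of the 43 members the share called was below that of all genes in each of these 4 fits. GTPBP4 was then lower by 0.49 ± 0.06 under the carfilzomib label (GTPBP4 log2 fold change -0.49, adjusted p = 5.41e-06), and RRS1 higher by 1.44 ± 0.10 (adjusted p = 7.72e-09). The 6 calls as labelled were 0 without any 1 of DMSO replicates 2 and 3 or the 3 libraries labelled carfilzomib, and 10 without the library labelled SHP1705 replicate 1.

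**Figure D5:**
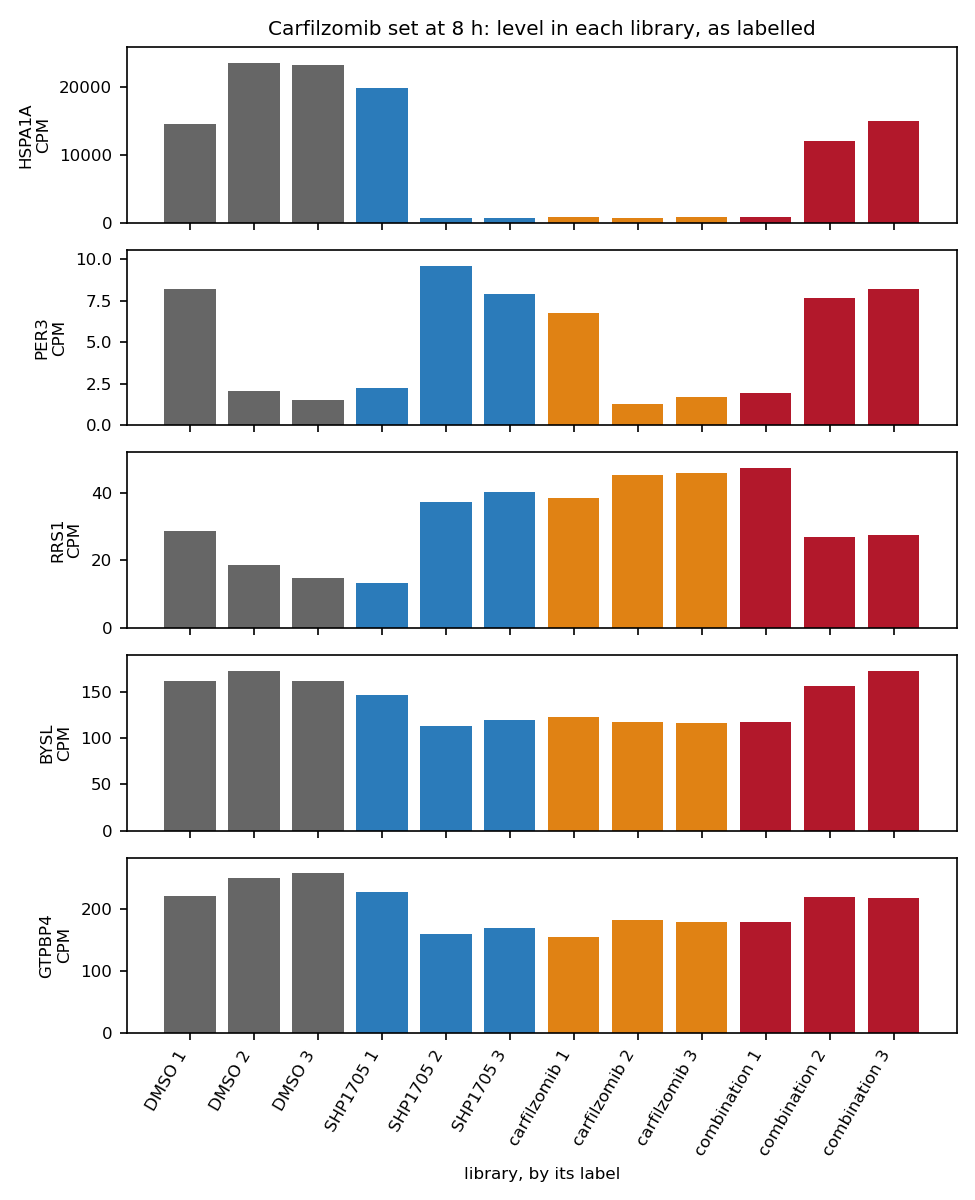
Level (y axes, CPM from 0) of HSPA1A, PER3, RRS1, BYSL and GTPBP4 in each of the 12 libraries of the carfilzomib set at 8 h (x axis), coloured by label. HSPA1A is at 12019.5 CPM or more in 6 libraries, the 3 labelled DMSO, 1 labelled SHP1705 and 2 labelled combination, and RRS1 is lower in those 6 (13.4 to 28.6 CPM) than in the other 6 (37.3 to 47.3 CPM).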

How the data were processed

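Transcripts of MDA-MB-231 cells were sequenced in 36 polyA libraries. The authors deposited 3 tables of raw read counts per gene, 1 for each set of 12 libraries. Reads were trimmed with Trimmomatic, checked with FastQC, aligned with HISAT2 to hg38 and counted with featureCounts, per the submitters' processing notes, while annotation and strand setting of the counting were found in no source used here. Libraries were grouped by their labels. The counts of each set were filtered with filterByExpr, scaled by TMM and fitted with edgeR 4.0.16 (R 4.3.3) as 4 groups of 3, and p-values from the quasi-likelihood F-test were adjusted by Benjamini-Hochberg over all genes tested, with calls at an adjusted p under 0.05. A joint fit of all 36 libraries in 12 groups tested differences between sets, comparing only contrasts made within a table. The scripts were tested on simulated data. The alternatives were DESeq2 1.42.0, scaling by relative log expression, leaving out each library, a fit restricted to the compared groups, no filter, the replicate number as a block, and, chosen after seeing the data, leaving out libraries that stood apart.

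All 43 members could be named. Values per library were given mainly for up to 4 called members with the smallest p in each direction of a comparison and for members of each role. For the falls in the MG132 combination they were given for PPAN in place of RRP9. Of other pathway genes, up to 4 with the smallest p in each direction were named, with further ones chosen after their values were seen. The members and lists were chosen with earlier results of these data known. Among all 630 pairs of libraries 0 were identical, and the smallest chi-square per degree of freedom was 3.29 within a labelled group and 3.28 over all pairs. Deviations of same-numbered libraries from their group means correlated at -0.154 to 0.191 in the MG132 set, -0.132 to 0.189 at 24 h and -0.830 to 0.411 in the carfilzomib set at 8 h. In none of the sets was every correlation over 0.1, so the numbers were not taken to pair the libraries.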

Additional observations from a re-analysis of the deposited data

Results flagged for a closer look

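The difference between the combination in the carfilzomib set at 24 h and the combination in the MG132 set at 8 h, tested by interaction in the joint edgeR fit, was called for 12 of the 43 members, beside 25.8% of all genes. For 3 of them the combination moved the gene in opposite directions in the 2 sets, with a call in each. The NCL difference was -0.41 and the NPM1 difference was -0.43 on the log2 scale, each from a rise at 8 h to a fall at 24 h. Both rises at 8 h were on the TMM scale, and whether they hold in raw shares of the counts was not tested. The POLR1B difference was 0.54, from a fall at 8 h to a rise at 24 h. Time, inhibitor, dose and set cannot be told apart in these 3 differences. Without the 12 libraries of the carfilzomib set at 8 h all 3 differences were called again, beside 39.4% of all genes. The rise of POLR1B at 24 h was not called without DMSO replicate 1, combination replicate 1 or combination replicate 2.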

How the results depend on the processing

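Among the results recomputed, 0 called values changed sign. With the replicate number as a block, the counts of called members in the MG132 set were 12 for SHP1705, 0 for MG132, 29 for the combination, 31 against MG132 and 31 for the interaction, and at 24 h 11, 12, 16, 4 and 1. The block removed the 6 calls of the carfilzomib set at 8 h (0 called), and it changed no other count by over 1.5 times.

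Leaving out 1 library gave 5 to 14 members for SHP1705 in the MG132 set, beside 3.64% to 8.18% of all genes. At 24 h it gave 4 to 15 for SHP1705, 7 to 15 for carfilzomib, 9 to 18 for the combination, 3 to 7 for the combination against carfilzomib and 0 to 3 for the interaction. Of all genes 2.52% to 6.71% were called for SHP1705 at 24 h in these fits. In the carfilzomib set at 8 h it gave 0 to 7 for SHP1705, 0 to 10 for carfilzomib and 0 to 10 for the interaction. Of all genes up to 23.1%, 39.2% and 32.1% were called there. DESeq2 called 1 member for MG132, 4 for the interaction at 24 h and 2 for that of the carfilzomib set at 8 h. The first and last stood beside 1.7% and 2.28% of all genes. A fit of only the groups compared called 15 for SHP1705 at 24 h and 12 for carfilzomib at 8 h, beside 7.66% and 45.2% of all genes. With no filter, the carfilzomib set at 8 h gave 1 for SHP1705, 1 for the combination and 3 for the interaction. Of all genes 3.28%, 2.15% and 7.3% were called in these.

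Of the exclusions chosen after seeing the data, leaving out 4 libraries with POSTN counts gave 0 for SHP1705 in the MG132 set. In the carfilzomib set at 8 h, without 2 libraries SHP1705 gave 10 and carfilzomib 17, beside 36.3% and 47.3% of all genes. There the combination against carfilzomib gave 7 and the interaction 16, beside 27.2% and 47.7%. Leaving out 4 gave 20, 22, 13 and 25 in the same order, beside 49.3%, 53.8%, 37.9% and 56.3% of all genes. It gave 12 for the combination against DMSO, beside 18%. The joint fit without that set gave 21 for the combination and 1 for SHP1705, with the shares of all genes given above. The cause of these changes was not tested. Each of these fits had fewer libraries, and the spread between libraries was largest in the carfilzomib set at 8 h. Library depth limits the low genes most, such as PPAN and NAF1.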
